A study of Mus musculus with 2 samples.

Results

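The genes of the transforming growth factor beta (TGF-beta) and bone morphogenetic protein (BMP) pathway were examined for H3R17me2a, a histone H3 modification with both methyl groups on one side of an arginine, in mouse heart. The members were taken by symbol from the RefSeq protein-coding genes of chromosomes 1 to 19: every Bmp, Gdf and Smad gene with a number in its name, every Inhb gene, and a fixed set of further ligand, receptor, antagonist and Smurf genes. This gave 52 genes of 20665. The rule used symbols and no measured value, but it and the roles were set with earlier results of these data known. The mark was mapped by chromatin immunoprecipitation and sequencing (ChIP-seq), in which DNA bound by an antibody to the mark is sequenced and a peak is a stretch where its fragments pile up over background. Both samples belong to 1 group, P21 hearts of wild type mice (21 days of age), and no Carm1-deficient, input or other control sample was analysed here. Carm1, named in the title of the series, is the arginine methyltransferase that places this mark. The labels are not uniform: the tissue is given as heart and the chromatin as coming from frozen cardiac tissue, another label names primary cardiac fibroblasts, the titles carry carm1 beside a wild-type genotype, and the design line calls the hearts neonatal. The antibody target is written as H3R17me2 in the protocol and as H3R17me2a in the design line.

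In this pathway, secreted ligands of the TGF-beta, BMP, GDF and activin groups bind pairs of type II and type I receptor kinases at the cell surface. The type I receptor phosphorylates receptor-regulated Smad proteins, which join the common partner Smad4, enter the nucleus and act on target genes, while Smad6 and Smad7 and the Smurf ubiquitin ligases hold the signal back. In the heart, BMP signals are needed for early cardiac development and TGF-beta signals are best known for driving fibroblasts to deposit matrix.

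Each sample has its own deposited peak list, called list 1 and list 2. List 1 held 21497 peaks with a lowest −log10 p of 5.0, and list 2 held 38012 peaks with a lowest −log10 p of 2.01, of which 38.1% had a q-value above 0.05. The fold of a peak is the authors' enrichment of ChIP signal over background at its summit. The number of reads at each summit followed from the fold and the p-value of the peak alone, on whole steps of 1 read in list 1 and of 0.618 in list 2, a step found on list 2 without reference to list 1. At the 8810 summits that fell on the same base in both lists, 66.7% had read numbers within 1 read of each other, and the difference had an SD of 0.309 counting errors, where separate libraries would give 1. The lists thus differed by less than sampling noise and count as 1 sample, so a value in both lists shows the effect of peak calling and background and carries no replicate error. Of 32 list 1 peaks at the ends of member genes, all overlapped a list 2 peak, and 31 pairs had reads within their counting error. The exception was a minor peak at Acvr2a, which list 2 joined to its larger neighbour. Among marker genes of cell types, 5 of 6 cardiomyocyte genes carried a gene-end peak in both lists (Myh6, Tnnt2, Tnni3, Actc1 and Pln). The fibroblast set had 0 of 6, the endothelial set 0 of 4 and the immune set 1 of 4 (Cd68). The share over all protein-coding genes was 40.1%. A peak of both lists, gene-end peaks included, overlapped the span of 6 of 6 cardiomyocyte, 0 of 6 fibroblast, 1 of 4 endothelial and 0 of 4 immune genes. The fibroblast gene Col1a1 had a gene-end peak in list 2 alone (fold 3.53). These sets are small, and the cell type that the signal comes from was not tested.

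Among the members, most genes for receptors and Smads carried the mark at an end, and most genes for ligands did not. A gene counted as marked when a peak of each list lay within 1000 bp of either end of its annotated span. By this measure 26 of the 52 genes (50%) were marked, beside 40.1% of all protein-coding genes of these chromosomes. The receptors had 8 of 11 genes marked, the Smads 7 of 8, the Smurf ligases 2 of 2, and the ligands 6 of 27. This contrast did not extend to pathway genes outside the member set, where 3 of 9 receptors and co-receptors and 2 of 5 ligands were marked. A peak found in both lists overlapped the span of 27 members (51.9%), beside 44.6% of all genes, with 7 of 27 ligands, 7 of 11 receptors and 8 of 8 Smads. Such a peak could be the gene-end peak itself, so this count is not separate from the count of marked ends. Of these 27 members, 5 had no marked end, namely Tgfb2, Bmp7, Gdf11, Fst and Smad9 (background 6.9%). Another 21 members had neither a marked end nor a shared peak over the span. In a whole tissue, fewer cells bearing the mark at a gene and less of it per cell cannot be told apart. With only the upper 50% of peaks by fold in each list, 9 members (17.3%) were marked beside 12.6% of all genes, and the order by role was gone, with 4 ligands, 2 receptors and 1 Smad. Under 8 other settings the ligands kept 4 to 7 marked genes, the receptors 6 to 8 and the Smads 7.

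**Figure D1:**
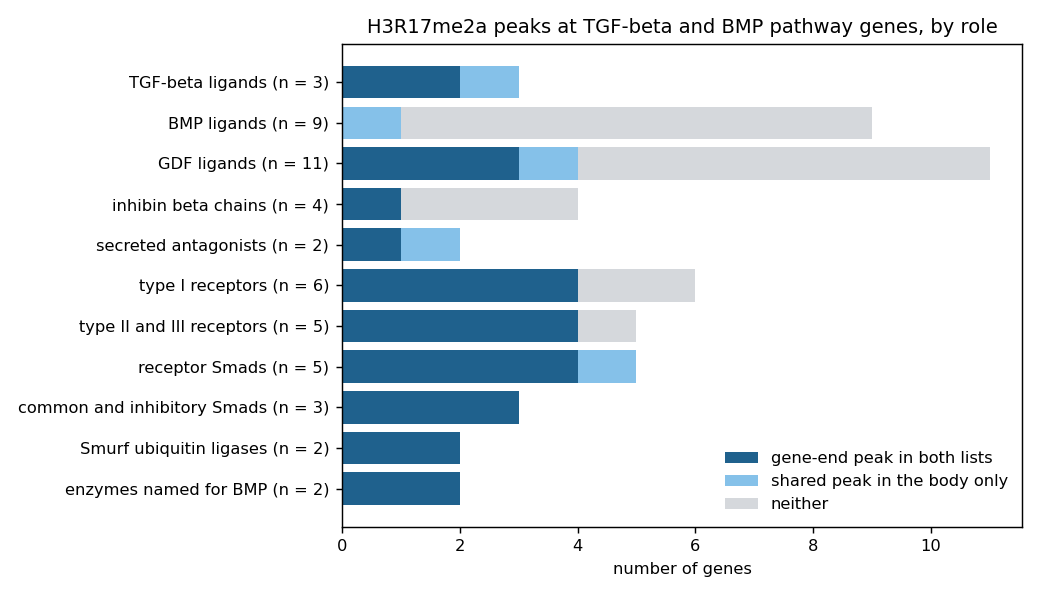
Number of member genes in each role with a gene-end peak in both lists (dark blue), with a peak shared by both lists inside the gene only (light blue), or with neither (grey). None of the 9 BMP ligand genes has a gene-end peak in both lists, whereas all 3 common and inhibitory Smad genes have one.

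The starts of 36 members were given in a RefSeq table of start windows (GRCm38.p6, the coordinates of mm10), each running from 250 bases before the start to 50 after it. For a gene with several starts, one covered in both lists was kept where there was one, and otherwise the most upstream. Of these windows 13 were overlapped by a peak in both lists (36.1%), beside 38.7% of the windows of all genes. The 250 bases before the start are shown for the only covered ligand gene, for the covered receptor, Smad or Smurf genes with the highest-ranked folds in the peak over the start, and for the alphabetically first ligand genes without any peak. The bare starts shown are both poor in CpG, and other bare ligand starts were rich in it (Gdf10, with a ratio of observed to expected CpG of 0.959, and Gdf7, with 0.766). Capitals mark CpG dinucleotides, and each sequence reads 5′ to 3′ on the strand of the gene. The Inhbb sequence lies at chr1:119422249-119422498 (minus strand) and holds 21 CpG. The Smurf2 sequence at chr11:106920716-106920965 (minus strand) holds 38, that of Bmpr1a at chr14:34502547-34502796 (minus strand) 36, and that of Acvr2a at chr2:48813859-48814108 (plus strand) 49. The bare starts are those of Bmp10 at chr6:87428744-87428993 (plus strand), with 3 CpG, and of Bmp4 at chr14:46390670-46390919 (minus strand), with 11.
Inhbb: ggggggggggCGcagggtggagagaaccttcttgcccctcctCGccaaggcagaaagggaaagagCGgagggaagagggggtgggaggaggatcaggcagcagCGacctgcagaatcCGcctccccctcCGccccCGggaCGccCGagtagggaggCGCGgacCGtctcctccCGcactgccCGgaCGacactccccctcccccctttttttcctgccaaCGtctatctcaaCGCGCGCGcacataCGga
Smurf2: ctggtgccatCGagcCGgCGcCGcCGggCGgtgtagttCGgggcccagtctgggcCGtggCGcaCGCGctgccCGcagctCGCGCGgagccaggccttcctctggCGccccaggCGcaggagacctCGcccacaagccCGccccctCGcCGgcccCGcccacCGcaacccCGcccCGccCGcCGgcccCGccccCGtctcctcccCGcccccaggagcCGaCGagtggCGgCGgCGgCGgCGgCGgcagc
Bmpr1a: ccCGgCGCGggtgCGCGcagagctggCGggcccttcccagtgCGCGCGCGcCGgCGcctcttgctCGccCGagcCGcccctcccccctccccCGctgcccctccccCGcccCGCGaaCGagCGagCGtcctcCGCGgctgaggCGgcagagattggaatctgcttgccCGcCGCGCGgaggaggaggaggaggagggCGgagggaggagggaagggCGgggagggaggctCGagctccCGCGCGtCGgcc
Acvr2a: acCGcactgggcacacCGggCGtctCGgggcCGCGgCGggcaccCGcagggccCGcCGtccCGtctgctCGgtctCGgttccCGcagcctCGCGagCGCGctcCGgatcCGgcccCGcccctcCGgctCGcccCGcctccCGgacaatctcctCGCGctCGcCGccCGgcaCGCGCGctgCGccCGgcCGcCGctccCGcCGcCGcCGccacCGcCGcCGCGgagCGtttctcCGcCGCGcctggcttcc
Bmp10: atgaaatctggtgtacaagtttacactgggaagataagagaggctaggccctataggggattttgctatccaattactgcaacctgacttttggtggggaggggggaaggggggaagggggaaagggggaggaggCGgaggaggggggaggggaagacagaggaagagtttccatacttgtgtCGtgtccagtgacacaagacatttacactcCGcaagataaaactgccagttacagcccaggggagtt
Bmp4: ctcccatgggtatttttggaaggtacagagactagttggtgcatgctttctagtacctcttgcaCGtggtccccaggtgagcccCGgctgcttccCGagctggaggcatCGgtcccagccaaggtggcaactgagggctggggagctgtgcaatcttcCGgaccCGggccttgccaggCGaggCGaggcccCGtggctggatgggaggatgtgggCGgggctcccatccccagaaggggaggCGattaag

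The covered starts shown here hold 21 to 49 CpG, with long CpG-free stretches in that of Inhbb, while the start of Bmp10, a BMP made mainly in the heart, holds 3. Over all 36 windows, the ratio of observed to expected CpG had a median of 0.952 (range 0.741 to 1.14) in the 13 covered members and of 0.523 (0.0418 to 1.13) in the 23 others. The same medians were 0.832 and 0.318 over all covered and uncovered windows, so this contrast is shared with the genome. The ligands differed from the other members among CpG-rich starts too. Of 8 ligand starts with a ratio above 0.6, 1 was covered, against 12 of 16 such starts in the remaining members and 65.3% of such starts over all genes. Only 19 ligands had a start window, and the marked ligands Gdf9 and Tgfb3 are not among them. The bare CpG-rich ligand starts were those of Tgfb1, Bmp6, Bmp8b, Gdf1, Gdf7, Gdf10 and Gdf11. Bare CpG-rich starts outside the ligands were Tgfbr2, Acvr2b, Smad9 and Smurf1, and a peak lay past the window at Tgfbr2, Smurf1 and the ligand Tgfb1, with list 1 summits 326, 302 and 883 bp after the start. These counts compare genes within 1 sample and were not tested.

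**Figure D2:**
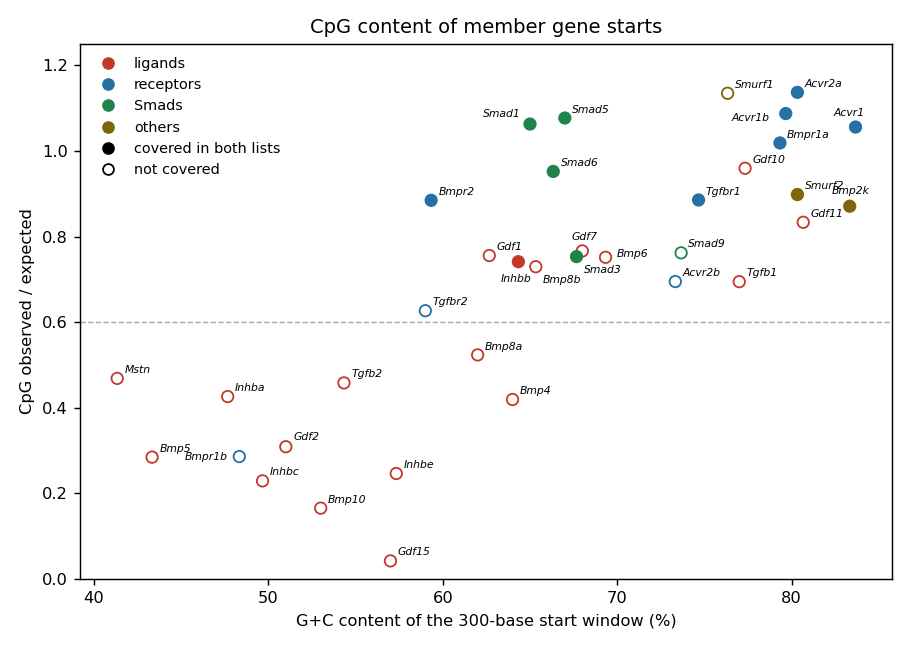
Ratio of observed to expected CpG against G+C content (%) in the 300-base start window of 36 member genes, filled where a peak of both lists covers the window and open where not; the dashed line is a ratio of 0.6. All 13 covered starts lie above the line, and open circles above it are mostly ligand genes.

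Short sequence motifs linked to Smad proteins were counted in the same windows on both strands. The palindrome GTCTAGAC, a Smad-binding sequence, was in 1 of 36 member windows and in 0.225% of 16457 windows of all genes. That 1 window belonged to Smad6, the inhibitory Smad of the BMP branch, whose start was covered in both lists by a peak whose list 1 summit lay at −1005 bp from the start. It is shown with the palindrome in capitals, at chr9:64022045-64022074 on the minus strand, and was chosen for display after the search. The palindrome begins 4 bases before the start.
Smad6: gccgccaaagtGTCTAGACtggcatatgat
The shorter element CAGAC was in 17 of 36 member windows (47.2%; all genes 48.5%), in 2 of 13 covered and 15 of 23 uncovered ones, where all genes had 45.6% and 50.3%. GGCGCC, a GC-rich element linked to BMP Smads, was in 10 of 36 (27.8%; all genes 16.2%), in 7 of 13 covered and 3 of 23 uncovered ones, and over all genes it was likewise in more of the covered windows (24.7%) than of the uncovered ones (10.8%). None of the searched motifs contains another on either strand. A match describes the letters only.

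Among the TGF-beta ligands, which act on fibroblasts, vessel walls and immune cells, Tgfb1 carried the strongest gene-end peaks. Tgfb1 spans chr7:25687002-25705077 (plus strand). Its peak beyond the 3′ end, with the summit 796 bp past it, had a fold of 9.45 in list 1 and 7.20 in list 2, both from 18 reads. That placed it above 92.7% of list 1 peaks and 92.3% of list 2 peaks. A weaker peak with its summit 883 bp inside the start had folds of 5.31 and 4.52 from 12 and 13 reads. The nearest end of another protein-coding gene lay 5239 bp from the 3′ summit and 1323 bp from the summit near the start. Both Tgfb1 peaks were out of reach of a 500 bp window. Tgfb3, with no strand in the table, had a peak at its high-coordinate end with folds of 4.66 and 3.13 from 18 and 19 reads, and this mark was lost when peaks of either list needed a −log10 p of 5. Tgfb2 had no gene-end peak in either list.

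The inside of Tgfb2 nevertheless held the highest fold of any member peak. Tgfb2 spans chr1:186622787-186709697 (minus strand), and its inner peak at chr1:186703129-186703402 had folds of 15.4 and 9.25 from 30 and 25 reads. A second inner peak of Tgfb2, about 5.03 kb from the other end, had folds of 6.40 and 6.52 from 31 and 30 reads. Within the TGF-beta ligands, then, the strongest signals sat past the 3′ end or inside the gene, and none of the starts in the table was covered.

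None of the 9 BMP ligand genes was marked at an end in both lists. BMP ligands pattern the embryo and, in the heart, act on muscle and valve cells. Bmp10 (chr6:87428994-87434512), Bmp2, Bmp4, Bmp6 and Bmp8b had no peak at an end or inside the gene in either list. Bmp3 had a list 2 peak with a fold of 3.53 from 8 reads and a −log10 q of 0.730, and list 1 had none. Bmp5 had 1 inner peak in list 2 (fold 3.28) and Bmp8a 2 (2.80 and 3.19), none of them in list 1. Bmp7 had an inner peak in both lists with folds of 5.31 and 2.95 from 12 and 11 reads, 10.2 kb from its high-coordinate end. The gene-end peak with the fewest reads of any member had 12 reads in list 1, at Tgfb1, and 6 in list 2, at Bmpr1a.

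Of the 11 GDF ligand genes, which include myostatin (Mstn), 3 were marked at an end, and none of them in both lists at a start that the table gives. Gdf15, a circulating factor induced by cell stress, spans only chr8:70629393-70632470 (minus strand). Its peak near the 3′ end had folds of 6.92 and 4.98 from 82 and 87 reads, and the nearest end of another protein-coding gene lay 9029 bp away. List 2 alone added a peak near its start with a fold of 3.57 from 33 reads. Gdf9, an oocyte growth factor (chr11:53430774-53437904), had a wide peak of 1324 bp with folds of 5.95 and 4.72 from 112 and 113 reads, at an end shared with Uqcrq, a gene of the respiratory chain. Gdf1 had 6.97 and 5.13 from 13 and 14 reads at an end shared with Cers1 and Upf1, the 13 being 1 of 2 read numbers that its fold and p allow. The peaks at Gdf9 and Gdf1 cannot be given to 1 gene. Gdf11 had an inner peak with folds of 6.17 and 5.08 from 14 reads in each list, 1.68 kb from its high-coordinate end. Gdf2, Gdf3, Gdf5, Gdf6, Gdf7, Gdf10 and Mstn had no peak in either list.

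Among the inhibin beta chains, the subunits of activins, Inhbb was marked and Inhba, Inhbc and Inhbe had no peak. The Inhbb peak, 221 bp before the start, had folds of 4.67 and 3.46 from 13 and 12 reads. At a −log10 p of 5 it was no longer marked.

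The antagonists Nog and Fst bind ligands outside the cell and keep them from their receptors. Nog, the BMP antagonist noggin (chr11:89300638-89302559), had a peak 746 bp beyond its high-coordinate end with folds of 6.57 and 4.13 from 27 reads in each list, and a 500 bp window did not reach it. Fst, the activin antagonist follistatin, had an inner peak with folds of 6.0 and 4.83 from 17 and 19 reads. At its end it had a list 2 peak only, with a fold of 2.96 and 13 reads.

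Receptor genes carried the mark at their starts. All 7 marked receptors with a known strand had it at the start end, among them Bmpr1a, Tgfbr1 and Acvr2a. This is shared with the genome: 90.2% of all marked genes over 5000 bp with a strand were marked at the start alone. List 2 alone added a peak near the 3′ end of Bmpr1a, with a fold of 2.80 from 6 reads. Bmpr1a, a type I receptor for BMPs (chr14:34411061-34503336, minus strand), had the deepest gene-end peak of the 26 in list 1, with 232 reads and folds of 5.17 and 3.66, the latter from 229 reads. The list 1 peak was 1029 bp wide. Tgfbr1, the type I receptor for TGF-beta (chr4:47353222-47414926, plus strand), had folds of 4.71 and 2.77 from 84 and 88 reads with the summit 149 bp after the start. Acvr1b, a type I receptor for activin, had 2.74 and 2.90 from 62 and 64 reads. Acvr1, which binds activins and BMPs, had the lowest list 1 fold of all marked members, 2.13, with 2.05 in list 2 and 48 reads in both. The Acvr1 peak lay at an end shared with Upp2, and it was lost at a −log10 p of 5. List 2 alone placed a pair of peaks inside Acvr1, with folds of 3.59 and 2.97. Bmpr1b and the endothelial receptor gene Acvrl1 were not marked: each had inner peaks that the lists did not share, with folds of 4.26 and 3.16 in list 2 at Bmpr1b, and 3.40 in list 1 and 3.65 in list 2 at Acvrl1.

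Type II receptors, which bind the ligand and switch on the type I receptor, showed the same layout. Acvr2a (chr2:48814109-48903264, plus strand) had folds of 4.91 and 3.75 from 52 and 53 reads, with the summit 28 bp after the start. Bmpr2, the BMP type II receptor (chr1:59764279-59878081, plus strand), had a pair of peaks. The one before its start was deeper but lower in fold (3.99 and 2.74 from 55 and 56 reads), and the one 674 bp after it was shallower and higher (5.07 and 4.15 from 14 and 15 reads). Tgfbr2, the TGF-beta type II receptor (chr9:116087695-116175363, minus strand), had 4.23 and 2.95 from 27 reads in each list, and its mark was lost at a −log10 p of 5 but not at a −log10 q of 2. The co-receptor Tgfbr3, betaglycan, had 3.75 and 3.07 from 44 and 43 reads at its high-coordinate end. Acvr2b had no peak in either list.

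**Figure D3:**
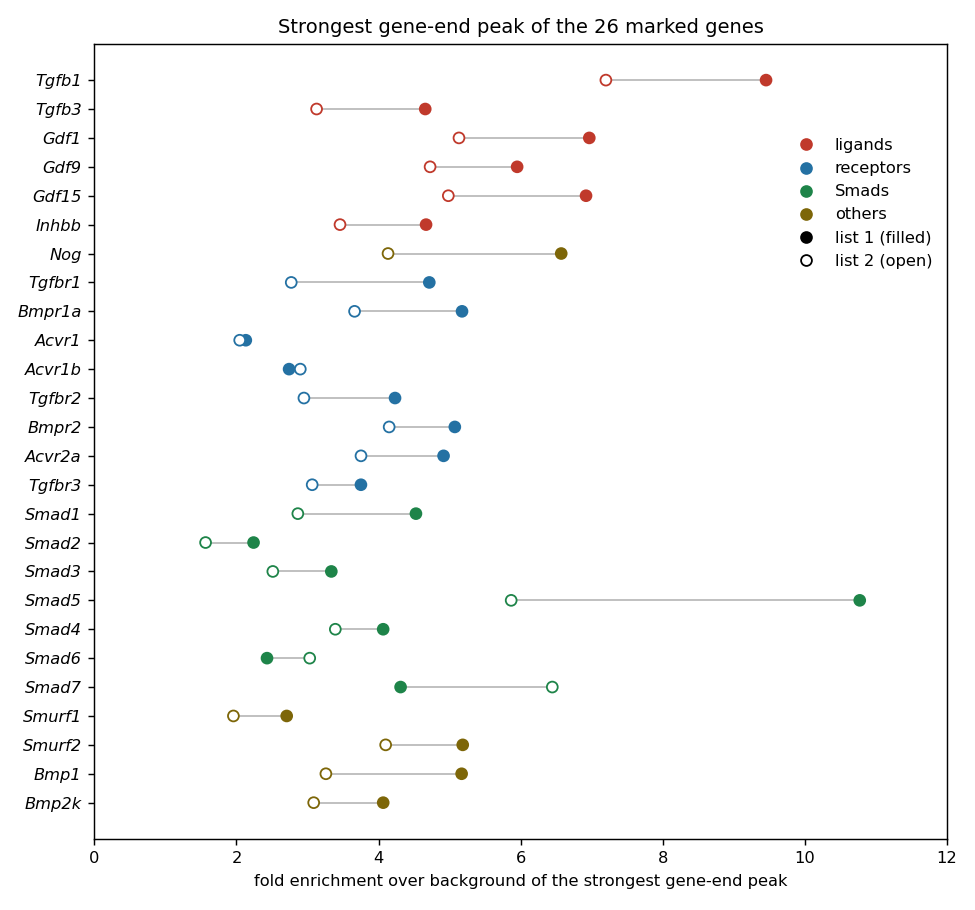
Fold enrichment of the strongest gene-end peak in list 1 (filled) and list 2 (open) for the 26 marked genes, coloured by ligand, receptor, Smad or other role. Smad5 and Tgfb1 lie farthest to the right, and Acvr1 and Smad2 stay near a fold of 2 in both lists.

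All receptor-regulated Smads except Smad9 were marked, and Smad5 had the highest list 1 fold of the gene-end peaks. Smad5, a BMP-branch Smad (chr13:56703010-56742378, plus strand), had folds of 10.8 and 5.87 from 41 and 39 reads at a list 1 summit 843 bp inside the annotated start end, above 95.5% of list 1 peaks. Smad5 has 3 listed starts, and that summit lay 185 bp after the nearest of them. A second Smad5 peak, 83 bp inside the annotated start end in list 1, was deeper in reads and weaker in fold, with 2.29 and 1.75 from 63 and 69 reads. Smad1, its BMP-branch relative (chr8:79338395-79399428, minus strand), had 4.53 and 2.86 from 94 and 91 reads, 130 bp after the start. In the TGF-beta branch, Smad3 (chr9:63646766-63757994, minus strand) had 3.33 and 2.51 from 39 reads in each list, and Smad2 (chr18:76241090-76311748) had 2.24 and 1.57 from 205 and 213 reads, the latter 1 of 4 solutions. Smad9 had no gene-end peak, and its inner peak, 9.10 kb from the low-coordinate end, had folds of 5.67 and 3.84 from 16 and 17 reads.

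Smad4 and the inhibitory Smads were all marked. Smad4 (chr18:73634790-73703791) had its strongest peak 2 bp from the annotated high-coordinate end, with folds of 4.06 and 3.39 from 129 and 130 reads. Smad7, which blocks TGF-beta receptors (chr18:75367365-75395935), had a peak of 1591 bp in list 1 and of 2954 bp in list 2, with folds of 4.31 and 6.44 from 111 and 105 reads. It was the widest gene-end peak of any member in both lists. Smad6 (chr9:63953076-64022085, minus strand) had 2.43 and 3.03 from 67 reads in each list and peaks of 1249 and 1420 bp. Smad6, Smad7 and Acvr1b were the only marked members with the higher fold in list 2 (3 of 26, against 40.4% of all 8284 marked genes). At Smad7 the summits differed, lying −202 bp from the low-coordinate end in list 1 and 34 bp from it in list 2. The background, in reads, was 25 at the list 1 summit and 14.9 at the list 2 summit, so these values are not from 1 position.

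The Smurf ligases, which send receptors and Smads to degradation, were marked at their starts. Smurf2 (chr11:106820061-106920747, minus strand) had folds of 5.18 and 4.10 from 69 and 73 reads, 97 bp inside the annotated end. Smurf1 had 2.71 and 1.96 from 38 and 34 reads and lost its mark at a −log10 p of 5. The rule on symbols also took in genes that are no ligands. Bmp1, a secreted protease that trims procollagen, had 5.17 and 3.26 from 30 reads in each list at an end shared with Sftpc. Bmp2k, a kinase, had a pair of peaks at its start: one had 228 and 233 reads with folds of 3.14 and 3.09, and the other 34 and 36 reads with folds of 4.06 and 1.70, so the strongest peak by fold was not the same in both lists.

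Fold and depth ordered the marked genes differently. Reads at the strongest gene-end peak of list 1 had a median of 46 over the 26 marked members (range 13 to 232) and of 51 over all marked genes. The median fold was 4.66 in list 1 (range 2.13 to 10.8; all marked genes 4.15) and 3.32 in list 2 (range 1.57 to 7.20; all marked genes 3.88). Members thus sat above the median of marked genes in list 1 and below it in list 2. The recovered background exceeded 20 reads at 7 of the 26: Bmpr1a, Acvr1, Acvr1b, Smad2, Smad4, Smad6 and Smad7. Smad2 is the plainest case, with 205 reads over a background of 91.0 and a 95% exact Poisson interval of 178 to 235 reads. Tgfb1 had 18 reads (10.7 to 28.4) over a background of about 1 read and more than 4 times the fold of Smad2. None of the 7 genes is a ligand gene, but only 6 ligand genes were marked, and a difference by role was not tested. Several high folds in this set rest on few reads, and the intervals cover counting error only.

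**Figure D4:**
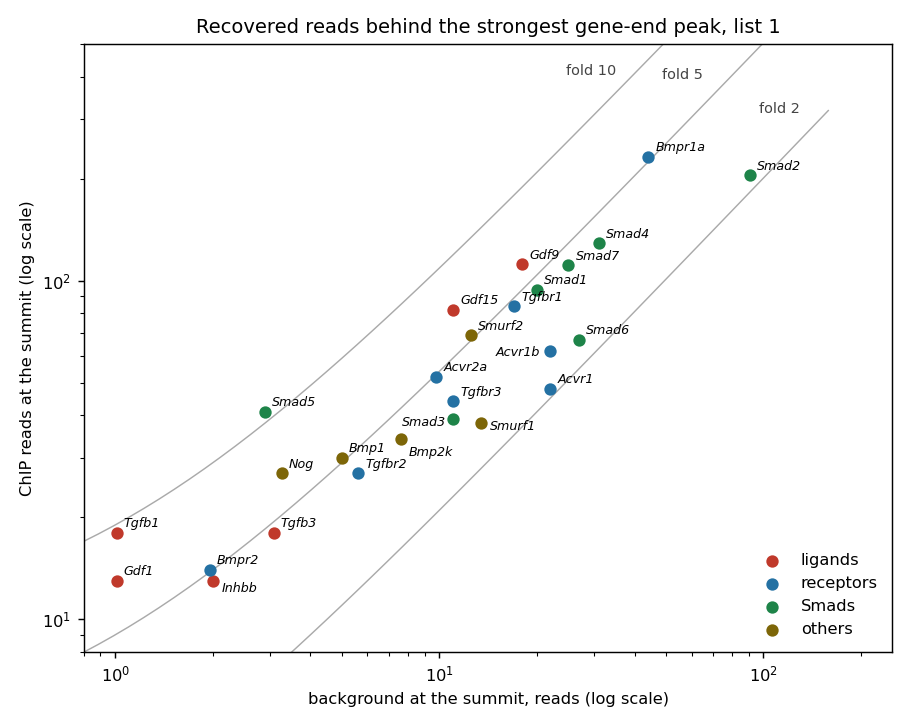
Reads recovered at the summit of the strongest gene-end peak in list 1 against the background there (both log scales) for the 26 marked genes; grey lines join points of equal fold (2, 5 and 10). Smad2 and Bmpr1a have over 200 reads, and the ligand genes Tgfb1, Gdf1 and Inhbb have under 20.

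Away from the 1000 bp around the ends, Smad6 held 4 shared peaks, Smad7 4, Tgfbr3 4, Smurf1 2, Tgfb2 2, and Bmp7, Gdf11, Fst, Bmpr1a, Acvr1b and Smad9 1 each. These counts are not adjusted for the span of the gene, which is 183063 bp at Tgfbr3 and 28571 bp at Smad7. The same counts over all genes are not given here, so whether these are unusual cannot be told. Counting every list 2 peak inside the span, shared or not, Bmpr1a held the most, 14, of which 2 had a list 1 partner, followed by Tgfbr3 with 10 and Smad6 with 8. At Smad6 the inner peaks exceeded the start in fold, from 3.77 to 8.14 in list 1 and from 3.92 to 5.14 in list 2, against 2.43 and 3.03 at the start. The deepest of them, at chr9:63968478-63968911, had 97 reads in list 1 and 95 in list 2. At Tgfbr3 the inner folds ran from 5.17 to 8.46 in list 1 and from 3.89 to 6.83 in list 2, all above the 3.75 and 3.07 at its marked end. The highest of these Tgfbr3 peaks lay at chr5:107233430-107234165 with 16 and 17 reads. At Smad7 the inner folds ran from 3.00 to 6.12 in list 1, and the inner peak nearest the marked end overlapped the single wide peak of list 2. At Smurf1 the inner folds were 4.0 and 5.97 in list 1, above the 2.71 at its start.

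**Figure D5:**
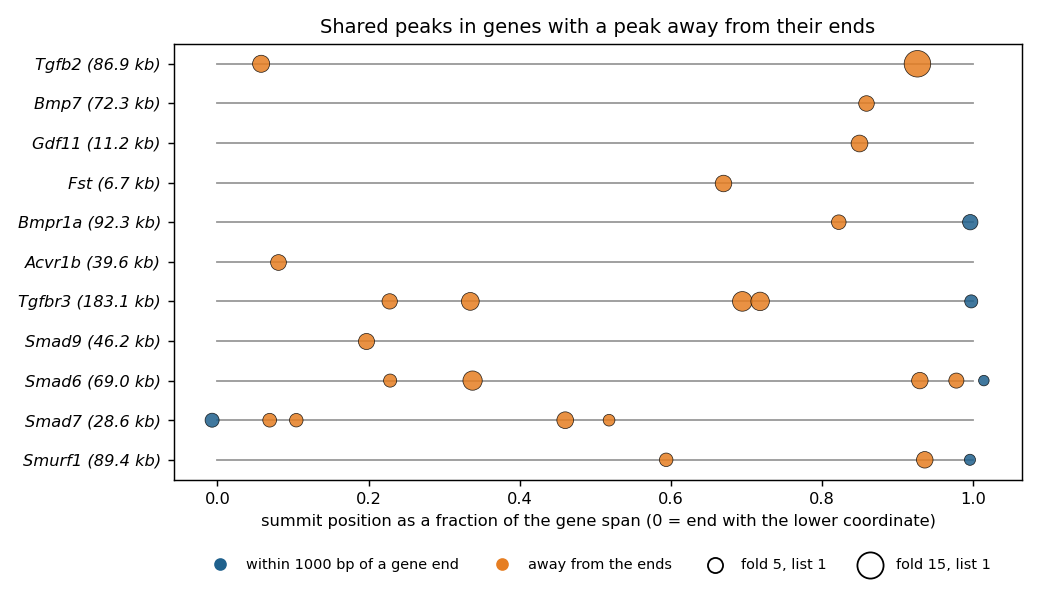
Summits of list 1 peaks that overlap a list 2 peak, along the span of the 11 member genes with such a peak away from their ends (0 is the end with the lower coordinate, 1 the other end); the area of a point grows with the list 1 fold. Smad6, Smad7 and Tgfbr3 each hold 4 orange points, and the largest point is at Tgfb2.

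In marked members over 5000 bp, the side of the gene that carried the mark was nearly always the start where strand was known. Of 17 marked members over 5000 bp with a strand, 15 were marked at the start alone, 1 at both ends (Tgfb1) and 1 at the 3′ end alone (Gdf1). Over all such genes 90.2% of 5871 were marked at the start alone. The shorter ligand gene Gdf15, of 3078 bp, was marked in both lists at the 3′ end only. Like Gdf15, the exceptions Tgfb1 and Gdf1 are ligand genes. Ligand and receptor genes also differ in length, with a median span of 12.9 kb for ligands and 89.2 kb for receptors, and 17.5 kb over all genes. Among members of 50 kb or more 15 of 20 were marked at an end (all genes of that length 44.7%), with 0 of 4 ligands, 7 of 8 receptors and 5 of 5 Smads. Below 50 kb, 6 of 23 ligands, 1 of 3 receptors and 2 of 3 Smads were marked. Under 10 kb the share marked was 30.8% of members and 29.5% of all genes, and from 10 to 50 kb it was 36.8% and 46.5%. The part of length in the contrast between roles was not tested further.

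Other genes of the pathway, 73 from a separate list, were marked in 35 cases (47.9%; all genes 40.1%), most often among the cytoplasmic and nuclear partners of the Smads and receptors, with 18 of 21 marked. The highest were Hgs, an endosomal adaptor (folds 8.50 and 7.55, at an end shared with Mrpl12), Usp15, a deubiquitinase that acts on the receptor complex (7.0 and 7.19), and Itch, a ubiquitin ligase (6.50 and 6.43). Proteins that store or release TGF-beta were marked at 2 of 11 genes, Itgb6 (7.25 and 5.90) and Ltbp1 (4.41 and 2.35), with none at Fbn1 and Furin. Further ligands were marked at 2 of 5, Amh (4.50 and 6.01) and Inha (2.62 and 2.38), both at ends shared with another gene (Jsrp1 and Obsl1), with none at Lefty1 and Lefty2. Further secreted antagonists were marked at 2 of 12, Nbl1 (5.94 and 4.66) and Twsg1 (3.45 and 2.26), with none at Bmper and Chrd. Further receptors and co-receptors were marked at 3 of 9, namely Hjv (3.75 and 5.43), Bambi (2.93 and 2.64) and Neo1 (2.87 and 1.90).

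Genes known to respond to the pathway were marked at 8 of 15. The Id genes, targets of BMP Smads that restrain differentiation, were all 4 marked, with folds of 9.15 and 5.66 at Id3 and 5.20 and 5.83 at Id1, and weaker ones at Id2 (2.27 and 3.80) and Id4 (2.21 and 1.90). Acta2, the smooth muscle actin of activated fibroblasts and vessel walls, had 7.34 and 4.66. The matrix genes Col1a2, Col3a1, Fn1 and Postn had no gene-end peak in either list, and Col1a1 had one in list 2 alone (3.53). Col1a1, Col1a2 and Postn are also among the fibroblast marker genes, which were at 0 of 6 as given above. That count is therefore not separate from the matrix genes, and the part of fibroblasts in these counts was not tested.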

How the data were processed

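H3R17me2a ChIP-seq peaks of 2 wild-type heart samples were used. FastQC, Bowtie2 and mm10 are named in the submitters' processing notes, while the sources used here do not state the peak caller, the control or any filter. Each deposited list has no header and the 10-column narrow peak layout, read from the values. It gives the fold, a linear ratio, the −log10 p and −log10 q, and a score of 10 times the −log10 p, as the authors deposited them.

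Members, roles, lists and rules were chosen with earlier results of these data known. Gene spans and start windows came from RefSeq tables for GRCm38.p6, and 36 of 52 members had a start window, hence a strand. Overlap meant at least 1 bp, and coordinates are 1-based. No test was run over members: counts stand beside the same count over 20665 protein-coding genes. Every member is described. Of the other pathway genes, up to 3 per role with the lowest summed rank of fold were named, with up to 2 bare ones where fewer than 3 had a peak, and Id2, Id4 and the matrix genes were added after their values were seen. Only 1 ligand start was covered, so only 1 covered ligand sequence is shown.

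Reads were recovered by assuming that the fold is (reads + 1) / (background + 1) and that p is the upper Poisson tail. A whole number of reads reproduced p (to 0.001 on the −log10 scale, plus rounding of the fold) in 99.98% of list 1 and 99.84% of list 2 peaks. The step of list 2 was scanned on 600 of its peaks, of which 99.8% fell on it against a median of 1.17% on other steps. Marking and recovery were tested on simulated data. The analysis used Python 3.11.15, pandas 2.3.3 and scipy 1.17.1.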

Additional observations from a re-analysis of the deposited data

How the results depend on the processing

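The mark at a gene end, 26 of 52 members, was recomputed under 9 alternatives, 1 of them (leaving out peaks at another gene's end) chosen after seeing the data. With the upper 50% of peaks by fold, the counts fell to 9 members at an end, 16 members with a shared peak over the span (27 otherwise) and 11 other pathway genes (35 otherwise). All other counts stayed within 1.5 times. Leaving out a list gave 26 and 28 members. The median fold over marked members, 4.66 in list 1, was 4.23 with a 500 bp window, 5.03 with 3000 bp, 4.91 at a −log10 p of 5, 4.81 at a −log10 q of 2, 6.57 in the upper 50% of peaks and 4.59 without peaks at another gene's end. In list 2 it was 3.32, and under the same settings 3.09, 3.67, 3.66, 3.53, 4.72 and 3.26. These medians move because the settings change which peaks are counted. The call of a single gene was the same under all 9 alternatives for 23 of the 26 unmarked members and for 5 of the 26 marked ones (Bmpr1a, Bmpr2, Smad5, Smurf2 and Gdf15). Most alternatives only take peaks away and could not change an unmarked call. The counts for unmarked and marked members therefore do not compare how firm the calls are. The calls of Tgfb3, Inhbb, Smurf1, Acvr1 and Tgfbr2 were lost at a −log10 p of 5, and those of Tgfb1, Gdf1 and Nog with a 500 bp window. Without peaks at another gene's end, Acvr1, Bmp1, Gdf1 and Gdf9 were not marked. Total depth is unknown, and the shallowest peak at a member end, not the same peak in each list, had 12 reads in list 1 and 6 in list 2. No paired analysis was possible because there is 1 group.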
